A study of Mus musculus with 2 samples.

Results

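Short RNA fragments of 9 chemokine and cytokine mRNAs were compared between a nuclear and a cytoplasmic small RNA library of dendritic cells. The genes were Cxcl2, Cxcl3, Ccl3, Ccl4, Ccl5, Ccl6, Ccl22, Il1b and Tnf. A sequence was a member when it matched an annotated transcript of one of these genes (GENCODE vM21) along its whole length, on the sense strand and with no mismatch. This held for 688 of the 538100 distinct sequences in the authors' deposited table, 393 of them in the nuclear and 329 in the cytoplasmic library. Of these, 17 also matched more than 10 genes and were set aside as repeat-like, 15 of them from the retained intron transcript of Cxcl3. The 671 sequences kept had 639 nuclear and 438 cytoplasmic reads. Antisense matches to the same transcripts came to 3 sequences with 3 nuclear reads, and the same sequences read backwards gave 0 matches.

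The cells were bone marrow cells of C57BL/6 mice, cultured for 7 days with GM-CSF and IL-4, which yields dendritic cells, and then treated with lipopolysaccharide (LPS). Both libraries came from treated cells, so no value here measures a response to LPS, and unstimulated cells were not analysed here. Neither the dose nor the time of treatment is given in the sources used here. The nuclear library was made from the pellet that held the nuclei after cells were swollen and spun in a buffer with a mild detergent, and the cytoplasmic library from the remaining fraction. The nuclear library listed 2000019 reads and the cytoplasmic library 2041383 reads, of 18 to 39 nt. There was 1 library in each group, so no difference has a replicate check. The 95% intervals given are exact (Clopper-Pearson or Poisson). They describe counting error alone, because reads amplified by PCR and lacking molecular identifiers need not be separate molecules.

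Chemokines are small secreted proteins that guide leukocytes by binding to receptors on their surface. Bacterial LPS, sensed through Toll-like receptor 4, switches on the transcription of many chemokine and cytokine genes in dendritic cells and macrophages within a short time. Their mRNAs tend to be short-lived, and several carry AU-rich elements in the 3′ untranslated region (UTR) that bind decay factors. Most of these genes are spliced transcripts with few exons, and some have annotated transcripts that keep an intron.

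The fragments below show the kinds of sequence behind the results that follow. They are written 5′ to 3′, with coordinates on GRCm38 and the strand of the gene, and coordinates of a fragment across a splice junction include the intron. In the first pair the capitals mark intron bases next to an exon, in the next group the bases of the downstream exon of a splice junction, and in the group after that a start or stop codon. The last group has no capitals.
Cxcl2, exon 3 into intron 3 (chr5:90904432-90904451, plus): actgaacaaGTGAGTCGCGA
Cxcl2, intron 2 into exon 3 (chr5:90904348-90904369, plus): TCTCTGCAGagccactctcaag
Cxcl3, exon 3 to exon 4 (chr5:90786651-90787436, plus): aagaagatactgaagagCGGC
Ccl5, exon 1 to exon 2 (chr11:83529254-83530390, minus): accatATGGCTCGGACACC
Ccl6, junction in the coding part (chr11:83588936-83589317, minus): caagccgggcatcatCTTT
Il1b, junction in the coding part (chr2:129368149-129369713, minus): aaaagatgaagGGCTGCTTCC
Ccl5, stop codon (chr11:83525970-83525991, minus): ttggagatgagcTAGgatagag
Ccl22, start codon (chr8:94745697-94745720, plus): cgaggacacataacatcATGgcta
Cxcl3, beyond the mRNA end (chr5:90789330-90789349, plus): acttcgggtttgtcgacggt
Ccl6, coding (chr11:83589780-83589798, minus): aaaaagaagatcgtcgcta
Il1b, coding (chr2:129366059-129366079, minus): atgagctttgtacaaggagaa
Tnf, coding (chr17:35201754-35201773, minus): gcttccagaactccaggcgg
Ccl3, coding (chr11:83649214-83649235, minus): atgacactctgcaaccaagtct

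The first comparison asked how the exon fragments of each gene divided between the libraries. Of the 9 genes, 7 had at least 50 exon reads over both libraries and were counted as measured, while Ccl3 and Ccl4 did not. A gene was called when the ratio of RPM (reads relative to the library's total) reached 2-fold and its interval did not include 1. Cxcl2 was called higher in the nuclear library, 0 genes were called lower, and 6 were neither. Over all 465 measured exon entries of protein-coding genes, 32.0% were called higher and 6.02% lower. The median log2 ratio was -0.04 over the 7 measured genes and 0.52 over all entries (quartiles -0.20 and 1.24), with 2 of the 7 above that median and 5 below it.

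The overall ratio depends on how the libraries are scaled. Against RPM, every log2 ratio shifts by -0.76 under TMM factors, by -0.82 under the median of ratios, by -0.60 with protein-coding exon reads as the total and by 0.92 with miRNA reads as the total. The percentages of all entries called higher and lower are then 13.5% and 22.2%, 12.9% and 25.6%, 16.6% and 19.4%, and 68.2% and 1.08%, in that order. Differences between genes do not depend on this. Relative to the median of all exon entries, the log2 ratio was 2.88 for Cxcl2, 0.15 for Tnf, -0.40 for Ccl6, -0.56 for Ccl5, -0.83 for Cxcl3, -1.0 for Il1b and -1.30 for Ccl22.

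**Figure D1:**
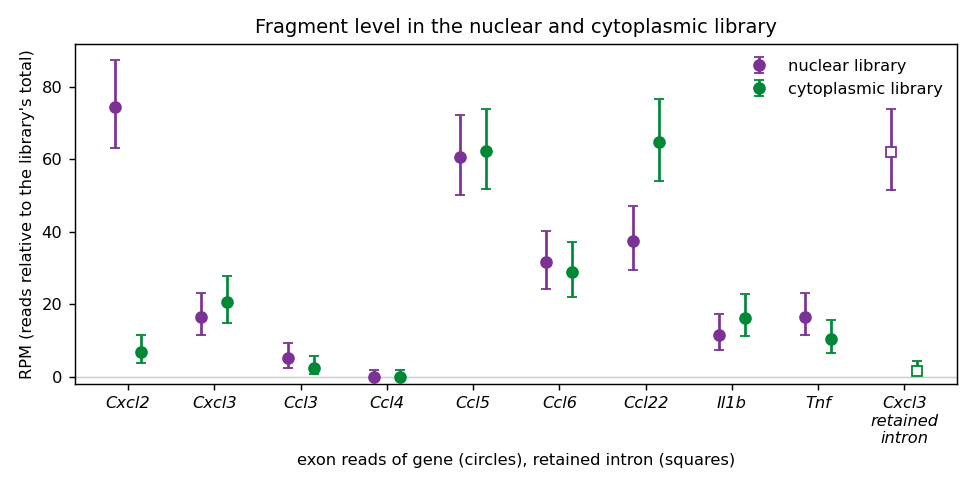
Level of exon fragments of each gene (circles, in RPM) and of the Cxcl3 retained intron entry (squares) in the nuclear and the cytoplasmic library, with exact Poisson 95% intervals. The intervals of the libraries lie apart for Cxcl2, Ccl22 and the Cxcl3 retained intron, and overlap for the other genes.

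**Figure D2:**
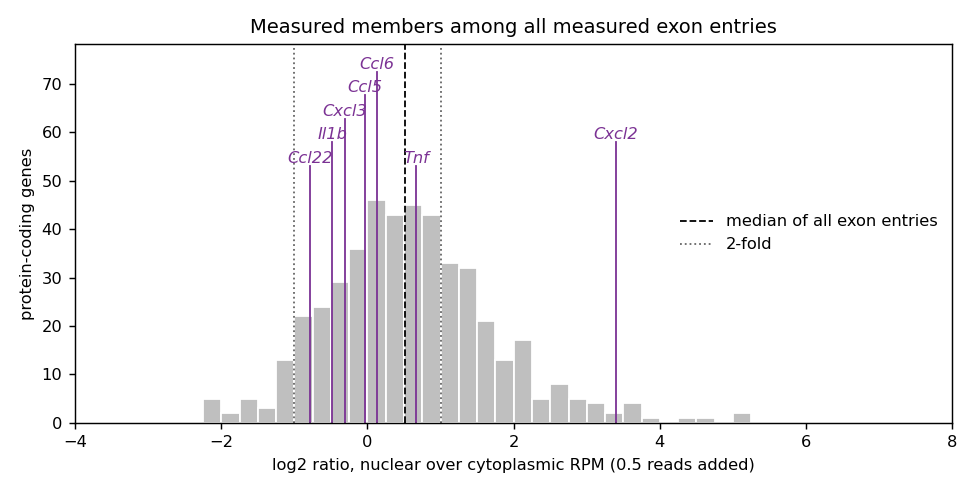
Distribution of the log2 ratio of nuclear to cytoplasmic RPM over the 465 measured exon entries, with the 7 measured genes marked, the median of all entries dashed and 2-fold dotted. Cxcl2 lies at 3.40, in the right tail, and the other 6 genes lie between -0.78 and 0.67.

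Per kilobase of its main mRNA (the protein-coding transcript with the longest coding part), Ccl5 was the most abundant gene in both libraries, at 114 RPM per kb in the nuclear and 117 in the cytoplasmic library. In the nuclear library it was followed by Cxcl2 (32.9), Ccl6 (21.9), Ccl22 (16.9), Cxcl3 (16.2), Tnf (10.1), Il1b (8.48) and Ccl3 (6.53). In the cytoplasmic library the order after Ccl5 was Ccl22 (29.2), Cxcl3 (20.3), Ccl6 (20.1), Il1b (11.9), Tnf (6.28), Cxcl2 (5.74) and Ccl3 (3.20). Apart from Ccl5 and the gene after it, the intervals of neighbouring genes named here overlapped in both orders. By all exon reads, which for Cxcl2 include those of intron 3 described below, Cxcl2 held rank 30 of 10806 genes in the nuclear and rank 723 in the cytoplasmic library, while Ccl5 held ranks 43 and 38 and Ccl22 ranks 98 and 34.

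Cxcl2 encodes a CXC chemokine that attracts neutrophils through the receptor CXCR2. Its main mRNA (chr5:90903873-90905938, plus strand) has 4 exons and 1109 nt. Its exon fragments had 149 nuclear and 14 cytoplasmic reads, or 74.5 RPM (63.0 to 87.5) and 6.86 RPM (3.75 to 11.5). The nuclear level was 10.9-fold higher (6.27 to 20.4). These reads were spread over 86 nuclear and 13 cytoplasmic sequences, 3 of them in both libraries, and no sequence had more than 6 nuclear reads. With sequences of 22 nt or longer alone, 35 nuclear and 5 cytoplasmic reads were left, under the minimum, at a log2 ratio of 2.72.

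Part of the Cxcl2 excess came from intron 3. One of its 2 annotated protein-coding transcripts keeps this intron within its last exon, so these sequences counted as exon by the rule. Intron 3, of 748 nt, had 75 nuclear reads and 1 cytoplasmic read, a ratio of 76.6 (13.3 to 3063). Intron 2, of 117 nt and kept by a retained intron transcript, had 6 nuclear reads. The cytoplasmic library had none there, so that the nuclear level was at least 2.04-fold higher when 3 cytoplasmic reads are taken as the floor, with 1.20 as the lower end of the 95% interval. The fragments across exon and intron printed above had 5 nuclear reads (exon 3 into intron 3) and 4 nuclear reads (intron 2 into exon 3), and neither had a cytoplasmic read. In all, 14 nuclear reads crossed a boundary of intron 3, 5 crossed a boundary of intron 2, and 0 cytoplasmic reads crossed either.

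Within the exons of the main mRNA, nuclear reads were also higher. These exon reads, which transcripts that keep an intron hold too, came to 73 nuclear and 13 cytoplasmic, a ratio of 5.73 (3.15 to 11.3). The 3′ UTR gave 56 and 6 reads, 9.53-fold higher (4.11 to 27.1), the coding part 16 and 4, and the 5′ UTR 1 and 3. The 3′ UTR reads were concentrated: 31 of the 73 nuclear and 4 of the 13 cytoplasmic main mRNA reads began within 30 nt, at positions 804 to 833 of the mRNA. Reads across a splice junction, the only ones here that show spliced RNA, were 6 nuclear (8.22%, 3.08 to 17.0) and 3 cytoplasmic (23.1%, 5.04 to 53.8), too few to show a difference.

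Cxcl3 encodes a related ligand of CXCR2. Its mRNA (chr5:90786103-90788093, plus strand) has 4 exons and 1016 nt, and its exon and retained intron fragments divided differently. Exon fragments had 33 nuclear and 42 cytoplasmic reads, a ratio of 0.802 (0.492 to 1.30), with a log2 ratio of -0.31 that turned to 0.60 with the miRNA total. Retained intron fragments had 124 nuclear and 3 cytoplasmic reads, or 62.0 RPM (51.6 to 73.9) and 1.47 RPM (0.303 to 4.29), a ratio of 42.2 (14.1 to 207). Of 36 retained intron entries measured over all genes, 88.9% were called higher and 2.78% lower, and the median log2 ratio was 4.22, against 5.18 for Cxcl3. With sequences of 22 nt or longer the Cxcl3 entry fell under the minimum (37 and 2 reads, log2 ratio 3.94).

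Most of these Cxcl3 reads lay outside the introns of the mRNA. The retained intron transcript runs past the annotated end of the main mRNA, and the stretch beyond that end held 98 nuclear and 2 cytoplasmic reads, a ratio of 50.01 (13.5 to 419). The printed fragment from there had 8 nuclear reads, the most of any Cxcl3 sequence kept, and 0 cytoplasmic reads. The introns held 26 nuclear reads and 1 cytoplasmic read (26.5-fold, 4.36 to 1088), of which intron 3, of 765 nt, had 17 and 0. The 15 repeat-like sequences of the same transcript had 93 nuclear and 0 cytoplasmic reads and are not part of these counts, since they cannot be placed in a single gene.

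**Figure D3:**
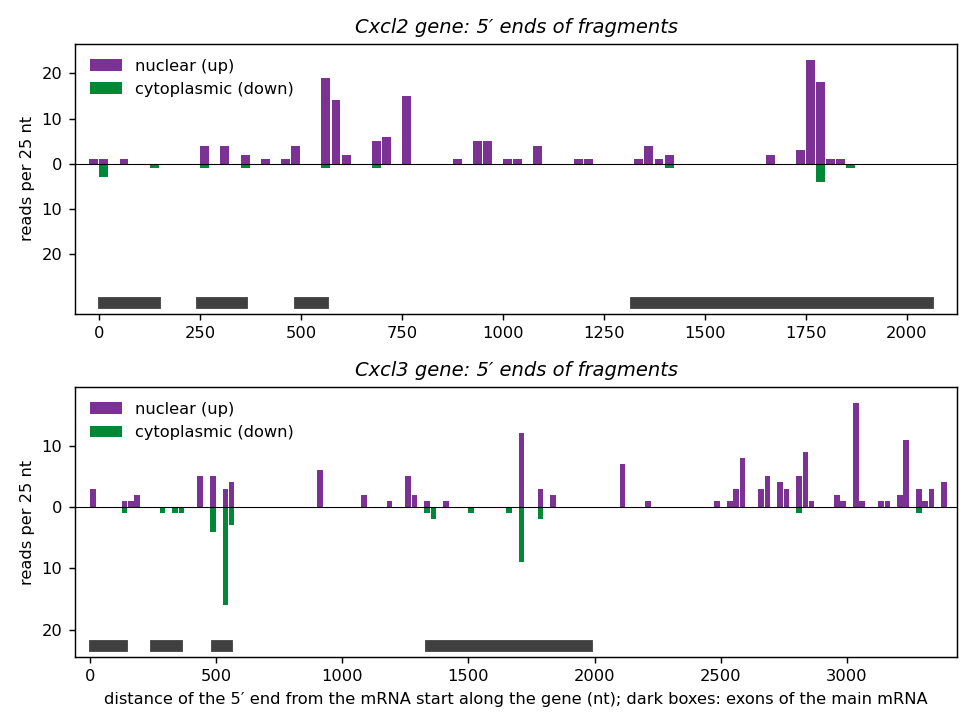
Reads by the position of the fragment's 5′ end along the Cxcl2 and Cxcl3 genes, in steps of 25 nt from the start of the main mRNA (nuclear up, cytoplasmic down, exons of the main mRNA as dark boxes, repeat-like sequences left out). Nuclear reads fill intron 3 of Cxcl2 and the stretch beyond the last exon of Cxcl3, where the cytoplasmic library had 1 and 2 reads.

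Within the Cxcl3 mRNA, cytoplasmic reads favoured the junction of exons 3 and 4. The coding part had 11 nuclear and 26 cytoplasmic reads, a cytoplasmic excess of 2.32-fold (1.11 to 5.19), while the 3′ UTR had 19 and 16. Reads across a splice junction were 6 of 33 nuclear (18.2%, 6.98 to 35.5) and 20 of 42 cytoplasmic reads (47.6%, 32.0 to 63.6), against 5.12% and 8.95% over all genes. A single 5′ end, at position 339, accounted for 10 cytoplasmic reads and 1 nuclear read, and the printed junction fragment starts there. Because Cxcl2 and Cxcl3 are similar, 7 sequences with 5 nuclear and 3 cytoplasmic reads matched both, and each was counted under the gene with more reads of its own.

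Ccl3 and Ccl4 encode inflammatory chemokines that attract monocytes and other leukocytes. Ccl3 (chr11:83647844-83649355, minus strand) had 10 nuclear and 5 cytoplasmic reads, a ratio of 2.04 (0.636 to 7.61), and its printed coding fragment had 2 nuclear reads. Ccl4 (chr11:83662584-83664683, plus strand) had no read in either library, which allows up to 3 reads in each. At this depth no difference was detectable for either gene.

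Ccl5, known as RANTES, attracts T cells and monocytes. Its mRNA (chr11:83525778-83530518, minus strand, 3 exons, 532 nt) gave 121 nuclear and 127 cytoplasmic reads, or 60.5 RPM (50.2 to 72.3) and 62.2 RPM (51.9 to 74.0). The ratio was 0.972 (0.752 to 1.26), and the log2 ratio of -0.04 changed sign with the miRNA total (0.88) and with fragments of at least 20 nt (0.15) or 22 nt (0.030). No read fell in its retained intron transcript in either library.

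Along the Ccl5 mRNA the libraries differed. The 5′ UTR had 51 nuclear and 22 cytoplasmic reads (ratio 2.37, 1.41 to 4.10), the coding part 57 and 79 (ratio 0.736, 0.514 to 1.05), and the 3′ UTR 13 and 26 (0.510, 0.241 to 1.03). Nearly all 5′ UTR reads began at the very start of the mRNA. The first 6 nt held the 5′ ends of 48 nuclear reads (39.7%, 30.9 to 49.0) and 21 cytoplasmic reads (16.5%, 10.5 to 24.2), with 29 and 13 at the first annotated base. Over all genes 0.509% of nuclear and 0.359% of cytoplasmic main mRNA reads began in the first 6 nt. By the number of such reads, not their share, Ccl5 held rank 2 of 429 genes in both libraries. Of the other members, Cxcl3 had 3 such nuclear reads and Ccl6 1 such cytoplasmic read.

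A group of Ccl5 fragments spanned the stop codon. These were 48 nuclear reads (39.7%) and 63 cytoplasmic reads (49.6%), against 0.621% and 0.901% over all genes, and Ccl5 ranked 1 of 429 genes by this share over both libraries. The printed fragment with the stop codon had 5 nuclear and 3 cytoplasmic reads, and it was 1 of many overlapping sequences. The 48 nuclear and 63 cytoplasmic reads with 5′ ends at positions 313 to 342 belonged to 62 sequences over both libraries. Among these, the commonest cytoplasmic ends were at positions 318 (6 nuclear and 12 cytoplasmic reads) and 319 (15 and 12). The 5′ end at position 129, just before the junction of exons 1 and 2, was cytoplasmic for the most part, with 2 nuclear and 15 cytoplasmic reads. The printed junction fragment starts there and had 2 and 10.

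Ccl6, a CC chemokine of myeloid cells, gave 63 nuclear and 59 cytoplasmic reads over its mRNA (chr11:83587882-83593087, minus strand, 4 exons, 1440 nt), a ratio of 1.09 (0.752 to 1.58). The coding part held 47 nuclear and 41 cytoplasmic reads and the 3′ UTR 16 and 17, and the retained intron transcripts held 0 in both libraries. The printed coding fragment had 6 nuclear and 0 cytoplasmic reads, and the printed junction fragment 4 and 0. These fragments do not stand for the gene. All Ccl6 reads across a splice junction were 12 of 63 nuclear and 14 of 59 cytoplasmic reads. Of the 86 Ccl6 sequences, 4 were in both libraries, a share that was not computed over all genes. The median length was 20 nt in the nuclear and 22 nt in the cytoplasmic library, and with fragments of 20 nt or longer the log2 ratio of Ccl6 changed sign, from 0.12 to -0.62 (33 and 52 reads). It also changed sign under TMM factors (-0.63), the median of ratios (-0.69) and the exon total (-0.48), with distinct sequences counted (-0.48) and without its most abundant sequence (-0.020).

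Ccl22, a product of mature dendritic cells and macrophages that attracts CCR4-bearing T cells, had the lowest ratio of the measured genes. Its mRNA (chr8:94745590-94751699, plus strand, 3 exons, 2216 nt) gave 75 nuclear and 132 cytoplasmic reads, or 37.5 RPM (29.5 to 47.0) and 64.7 RPM (54.1 to 76.7). The cytoplasmic level was 1.72-fold higher (1.29 to 2.32), under the 2-fold needed for a call. It was called lower in the nuclear library under TMM factors, the median of ratios and the exon total, and its log2 ratio turned to 0.13 with the miRNA total.

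The difference for Ccl22 was largest in the 5′ UTR. The 5′ UTR had 8 nuclear and 35 cytoplasmic reads, a cytoplasmic excess of 4.29-fold (1.95 to 10.7). The coding part had 7 and 15 reads, and the long 3′ UTR 60 and 82 (cytoplasmic excess 1.34-fold, 0.948 to 1.90). The busiest 30 nt, with 5′ ends at positions 95 to 124, held 10 nuclear and 35 cytoplasmic reads, and the end at position 102 had 13 cytoplasmic reads and 1 nuclear read. The printed fragment with the start codon lies in the same stretch, beginning at position 108, and went the other way, with 3 nuclear and 0 cytoplasmic reads. All reads over the start codon also went that way, with 6 nuclear (8%, 2.99 to 16.6) and 1 cytoplasmic (0.758%, 0.0192 to 4.15). None of the Ccl22 reads crossed a splice junction.

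Il1b encodes the precursor of interleukin-1 beta, which inflammasomes mature. Its mRNA (chr2:129364570-129371139, minus strand, 7 exons, 1356 nt) gave 23 nuclear and 33 cytoplasmic reads, a ratio of 0.711 (0.399 to 1.25). The coding part had 14 and 29 reads, a cytoplasmic excess of 2.03-fold (1.04 to 4.16), whereas the 3′ UTR had 8 nuclear reads and 1 cytoplasmic read, a ratio of 8.17 (1.09 to 362). Both parts were under the minimum of reads. The most frequent cytoplasmic fragment, printed above from position 568, had 4 cytoplasmic and 0 nuclear reads, and the printed junction fragment 3 nuclear and 0 cytoplasmic reads. All Il1b reads across a splice junction were 4 of 23 nuclear (17.4%, 4.95 to 38.8) and 9 of 33 cytoplasmic (27.3%, 13.3 to 45.5). Intron 2 had 2 reads in each library. Il1b was called lower in the nuclear library under TMM factors (log2 ratio -1.24), the median of ratios (-1.30) and the exon total (-1.08). Its sign changed with the miRNA total (0.43). It also changed with fragments of at least 20 nt (0.030, 21 reads in each library) or 22 nt (0.16, 11 and 10 reads), both under the minimum of reads.

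Tnf encodes tumour necrosis factor, made as a membrane protein that ADAM17 sheds. Its mRNA (chr17:35199381-35202007, minus strand, 4 exons, 1639 nt) gave 33 nuclear and 21 cytoplasmic reads, a ratio of 1.60 (0.901 to 2.92), and the sign of its log2 ratio of 0.67 changed under TMM factors (-0.09) and the median of ratios (-0.15), and with fragments of at least 20 nt (-0.40, 14 and 19 reads) or 22 nt (-1.44, 4 and 12 reads), the last 2 under the minimum of reads. Fragments came mostly from a short stretch of the 5′ UTR. Of the cytoplasmic reads, 20 of 21 (95.2%) began at positions 16 to 45, and of the nuclear reads 19 of 33 (57.6%). Within this stretch the libraries used different 5′ ends: position 33 had 12 cytoplasmic and 2 nuclear reads, and position 29 had 7 nuclear and 0 cytoplasmic reads. The coding part had 10 nuclear reads and 1 cytoplasmic read (10.2-fold, 1.45 to 443), 3 of them from the printed fragment, and the 3′ UTR had 4 and 0. The median length was 19 nt in the nuclear and 22 nt in the cytoplasmic library.

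**Figure D4:**
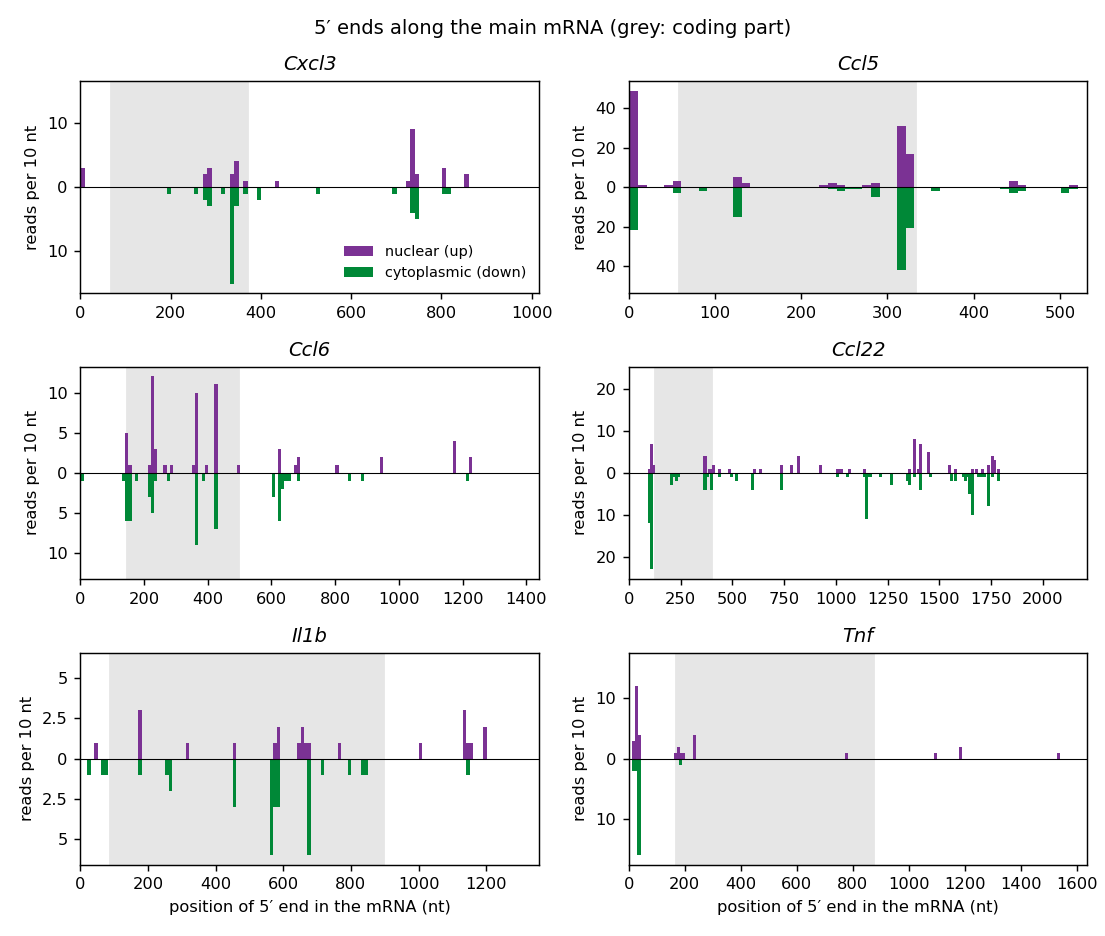
Reads by position of the fragment's 5′ end along the main mRNA in steps of 10 nt, for 6 genes (nuclear up, cytoplasmic down, coding part grey). Ccl5 fragments start at the first bases and before the stop codon in both libraries, and Tnf fragments cluster in the 5′ UTR. Cytoplasmic Ccl22 fragments peak in the 5′ UTR, though most Ccl22 reads of both libraries lie in the 3′ UTR. The cytoplasmic Cxcl3 fragments peak before the end of the coding part.

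Over all 9 genes, the 5′ UTR gave a similar share of the main mRNA fragments in both libraries. The 5′ UTR took 19.3% of 431 nuclear reads (15.6 to 23.3) and 19.4% of 432 cytoplasmic reads (15.8 to 23.5), although it makes up 8.18% of the summed mRNA length. Over all protein-coding genes the 5′ UTR took 11.6% and 3.22%. The coding part took 38.7% (34.1 to 43.5) and 45.6% (40.8 to 50.4) in the members and 57.2% and 62.2% over all genes. The 3′ UTR took 42.0% (37.3 to 46.8) and 35.0% (30.5 to 39.7) in the members and 31.2% and 34.6% over all genes. Without Cxcl2 the members' coding part took 42.2% and 46.1%, and their 3′ UTR 34.9% and 34.6%. The members' 5′ UTR reads came chiefly from Ccl5 (51 nuclear and 22 cytoplasmic), Ccl22 (8 and 35) and Tnf (19 and 20), of 83 and 84 in all.

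**Figure D5:**
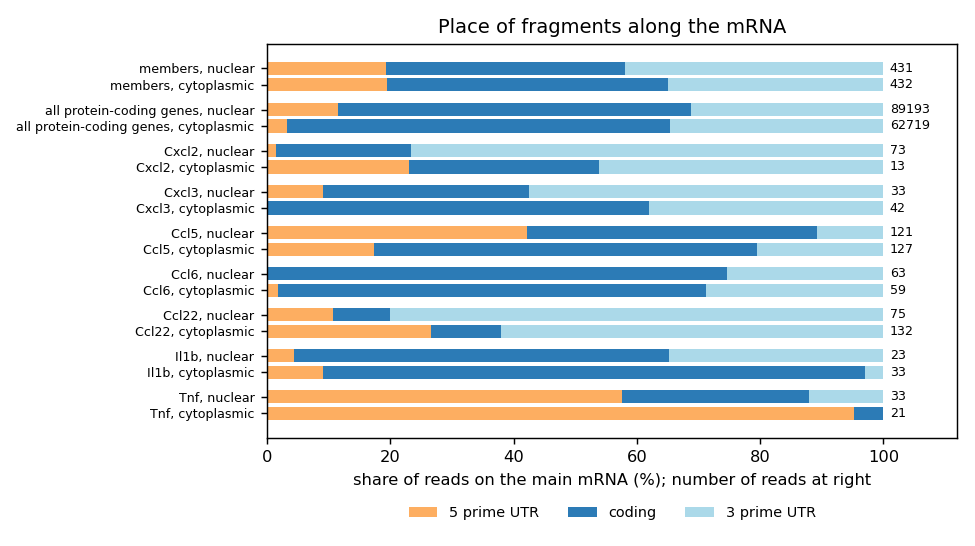
Share of main mRNA reads in the 5′ UTR, the coding part and the 3′ UTR in each library, for the members together, all protein-coding genes, and 7 genes, with the number of reads at the right. Tnf has the largest 5′ UTR share in both libraries (57.6% and 95.2%), and Ccl22 and Cxcl2 have the largest nuclear 3′ UTR shares (80.0% and 76.7%).

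Outside the main mRNA the split between the libraries was sharper. Intron fragments of the members had 109 nuclear and 4 cytoplasmic reads, a ratio of 27.8 (10.6 to 104), and without Cxcl2 28 and 3 reads, a ratio of 9.53 (2.94 to 49.0). Over all genes, reads of retained intron transcripts had a ratio of 12.4 (11.7 to 13.0), exon reads off the main mRNA one of 3.40 (3.24 to 3.57) and main mRNA reads one of 1.45 (1.44 to 1.47). Reads across a splice junction made up 8.58% of nuclear (6.12 to 11.6) and 14.4% of cytoplasmic main mRNA reads (11.2 to 18.02) of the members.

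Of the 671 sequences kept, 34 were in both libraries, which is 34 of 377 nuclear and of 328 cytoplasmic sequences. A single read in all was found for 471 sequences, which therefore could not be in both. The share of sequences in both libraries was not computed over all genes, so the low overlap is not read as a trait of the members. The median length was 21 nt in both libraries. The first base was A in 36.5% of nuclear and 51.1% of cytoplasmic reads, retained intron reads included. It was A in 34.0% and 54.0% over all protein-coding exon fragments, a set without retained intron reads. The AU-rich core ATTTA (searched on the sense strand) occurs 41 times in the annotated 3′ UTRs of the 9 genes and in 9.15% of their 22-nt windows, and 1 of 181 nuclear and 1 of 151 cytoplasmic 3′ UTR reads held it. The reads were spread unevenly over genes. Ccl22 (2.01% of windows) gave 60 nuclear and 82 cytoplasmic reads, Ccl5 (0%) 13 and 26, and Cxcl2 (19.1%) 56 and 6. The pooled 9.15% is therefore not the share expected of these reads, and no share over all genes was computed.

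Genes around the members in the pathway were taken from 7 lists with 100 different genes, of which 10 reached 50 reads. In the nuclear library 7 of these were called higher, 0 lower and 3 neither, and their median log2 ratio was 1.49, beside 32.0% higher and 6.02% lower and a median of 0.52 over all exon entries. Under TMM factors 3 (Nfkb1, Dusp1 and Zfp36) were called higher and 1 (Tnfrsf1b) lower, beside 13.5% and 22.2% over all entries. The measured genes of LPS sensing, 3 in number, were called higher with RPM, and Nfkb2 and Rel lost the call under TMM factors. They were Nfkb1 (105 nuclear and 28 cytoplasmic reads, 3.83-fold, 2.50 to 6.03), Nfkb2 (46 and 14, 3.35-fold, 1.81 to 6.61) and Rel (106 and 53, 2.04-fold, 1.45 to 2.90), which encode NF-κB subunits. Among the feedback inhibitors, Nfkbia, the inhibitor of NF-κB, had 123 and 38 reads (3.30-fold, 2.28 to 4.89) and the phosphatase gene Dusp1 148 and 34 (4.44-fold, 3.04 to 6.65). The ubiquitin-editing enzyme gene Tnfaip3 was not called (86 and 46 reads).

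The mRNA decay factor gene Zfp36, whose protein tristetraprolin binds AU-rich elements, had 43 nuclear and 7 cytoplasmic reads (6.27-fold, 2.80 to 16.5), and its relative Zfp36l1 had 36 and 29 and was not called. The inflammasome gene Nlrp3 had 43 and 18 reads (2.44-fold, 1.38 to 4.49), while Adam17 had 19 and 14. Among the receptors, the TNF receptor gene Tnfrsf1b had 30 and 44 reads and was not called, and Ccr1 had 18 and 27. No other chemokine or cytokine gene reached 50 reads, and those with the most reads were Ccl17 (15 and 25), Cxcl16 (28 and 15), Il1rn (28 and 20) and Csf1 (17 and 19).

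Marker genes were read as a check of the cells. Of 11 dendritic cell markers 10 had reads, 586 nuclear and 551 cytoplasmic in all, and Flt3 was at 0. Of the 7 measured, Ccr7 was called higher (151 nuclear and 70 cytoplasmic reads, ratio 2.20, 1.65 to 2.97) and lost the call under TMM factors. The other 6, Cd74 (159 and 196), Itgax (63 and 53), H2-Aa (53 and 65), H2-Ab1 (31 and 34), H2-Eb1 (46 and 43) and Fscn1 (37 and 51), were neither. Macrophage markers had 169 nuclear and 486 cytoplasmic reads, most of them from Lyz2 (96 and 411, called lower in the nuclear library), with Csf1r at 42 and 30, and all 6 had reads. Of the 4 fibroblast markers, all had reads, 80 nuclear and 6 cytoplasmic, led by Col1a1 (49 and 5, 10.0-fold, 4.01 to 32.2) and Col1a2 (28 and 1). Neutrophil markers had 8 and 12 reads with Mpo at 0, led by S100a8 (6 and 1) and Ngp (2 and 4). Eosinophil or mast cell markers had 1 and 12, led by Prg2 (1 and 10) and Epx (0 and 2), with Mcpt8 and Cpa3 at 0. T cell markers had 2 and 1 (Cd3d 1 and 0, Cd4 1 and 1), with Cd3e and Cd8a at 0, and the B cell markers Ms4a1, Cd79a and Cd79b and the red cell markers (Hbb-bs, Hbb-bt, Hba-a1, Hba-a2, Alas2) were at 0. Their part in the results above was not tested, and in a culture measured in bulk, fewer cells of a type and less RNA per cell cannot be told apart.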

How the data were processed

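The authors' deposited table gives each distinct sequence a value in RPM (reads relative to the library's total) for each library. The submitters' processing notes name CASAVA and the build mm10 (GRCm38). For trimming, alignment and filters, no details were given in the sources used here. The columns were taken as nuclear and cytoplasmic from the last letter of their names. In both, 100% of nonzero values divided by the value of 1 read (0.500 RPM nuclear, 0.490 RPM cytoplasmic) came out whole within 0.1 read, so whole reads were recovered, giving 2000019 nuclear and 2041383 cytoplasmic reads.

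Sequences were matched exactly to GENCODE vM21 transcripts on the sense strand with Python 3.11, numpy 2.4.6 and pandas 2.3.3. A sequence that matched an exon of a protein-coding transcript counted as exon, and otherwise one that matched a retained intron transcript as retained intron. Sequences in more than 10 genes were set aside. The place was that of the fragment's middle base on the main mRNA. No genome sequence was used, so introns were seen only where an annotated transcript keeps them. Reads of near-identical copies cannot be told apart.

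The ratio is nuclear over cytoplasmic RPM, and log2 ratios have 0.5 reads added, which understates the change of genes with few reads. Entries were measured from 50 reads in both libraries together and called at 2-fold with a 95% interval (scipy 1.17.1) without 1. Ratios for a part of a gene are given without a call. Several rest on fewer than 50 reads, among them those of the Cxcl3, Il1b and Tnf coding parts and the Ccl22 5′ UTR. A count model needs replicates: with 1 library in each group edgeR's quasi-likelihood fit leaves nothing to estimate the spread from, and no p-value was computed. edgeR 4.0.16 (R 4.3.3) gave the TMM factors. Matching and calling were tested on simulated data. Named were all members, and of each list every gene with at least 50 reads or else the 2 with the most. The lists were other chemokines, other cytokines, receptors, LPS sensing, feedback inhibitors, mRNA decay, processing of members, and cell type markers. Of each member, fragments with the most reads were printed, coding ones preferred, at most 2 a gene. Fragments lying wholly in a UTR are not printed, and those shown for an intron boundary, a junction or a codon were chosen after their values were seen. Members and lists were chosen with earlier results of these data known.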

Additional observations from a re-analysis of the deposited data

How the results depend on the processing

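No paired analysis was possible because each group has 1 library, and for the same reason no replicate could be left out. Cxcl2 (exon log2 ratio 2.47 to 4.31) and the Cxcl3 retained intron (3.94 to 6.10) stayed higher in the nuclear library in all 17 alternatives, though both fell under 50 reads with fragments of 22 nt or longer, where the retained intron had 3.94 and 0 members were called higher. Some of the 17 could not move these ratios. Another minimum of reads leaves both as they are. Counting repeat-like sequences leaves Cxcl2 as it is, and the main mRNA alone leaves the Cxcl3 retained intron. Members called higher rose to 3 with the miRNA total (Cxcl2, Ccl6 and Tnf), beside 68.2% of all exon entries. Members called lower rose to 3 with TMM factors and to 3 with the median of ratios (Cxcl3, Ccl22 and Il1b), and to 2 with the exon total (Ccl22 and Il1b). Of all exon entries 22.2%, 25.6% and 19.4% were then called lower. Counts of pathway genes called are given with the percentage of all exon entries called in brackets. Pathway genes called higher, 7 with RPM (32.0%), were 3 with TMM factors (13.5%) and 3 by the median of ratios (12.9%). They were 14, 4 and 23 with a minimum of 20 reads, of 100 reads and with none (35.2%, 28.9% and 13.1%). With fragments of at least 20 and 22 nt they were 4 and 3 (26.3% and 22.8%), and with distinct sequences counted 2 (12.0%). Those called lower were 1 with TMM factors (22.2%), 1 by the median of ratios (25.6%), 1 with the exon total (19.4%) and 2 without a minimum of reads (0.972%). The pathway genes measured were counted with RPM alone (10). All exon entries measured were 465 with RPM, 1735 with a minimum of 20 reads, 142 with 100 and 10806 with none. The median over all exon entries turned to -0.24 under TMM factors, -0.30 under the median of ratios, -0.083 with the exon total and -0.019 with distinct sequences. The cause of these changes was not tested. The main mRNA alone and the counting of repeat-like sequences were alternatives chosen after seeing the data. Few reads per gene limit all values: the interval of Il1b, with 23 and 33 reads, runs from 0.399 to 1.25.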

Other observations

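Fragments of the members that matched an exon only after removal of 1 to 3 nt at the 3′ end were more frequent in the cytoplasmic library. They made up 49 of 482 cytoplasmic reads (10.2%, 7.62 to 13.2) and 11 of 518 nuclear reads (2.12%, 1.06 to 3.77), against 8.54% and 5.77% over all protein-coding genes. In 24 of the 49 cytoplasmic and 2 of the 11 nuclear reads the removed bases were T alone. Ccl22 had 18 such cytoplasmic reads and 2 nuclear ones, Ccl5 10 and 1, and Tnf 10 and 1. Added bases, sequencing errors and bases that differ from the annotation cannot be told apart by this match.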
